A study of Homo sapiens with 30 samples.

Results

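MV4-11 and Molm-14 are human acute myeloid leukemia (AML) cell lines, each carrying the FLT3 internal tandem duplication, and the effect of deleting MPC1 was compared between them, gene by gene. The comparison subtracts effects: the change from empty vector (EV) to MPC1 knockout (KO) in Molm-14 was taken away from the same change in MV4-11, so a positive difference means that a gene moved further up, or less far down, in MV4-11. It used 12 of the 30 RNA-seq libraries of the series, which are MV4-11 EV, MV4-11 KO, Molm-14 EV and Molm-14 KO with n = 3 libraries each. Of 14490 genes tested, 215 (1.48%) had a difference past a false discovery rate of 5% in edgeR's quasi-likelihood test, 78 higher (0.538%) and 137 lower (0.945%) in MV4-11 relative to Molm-14. Within these, 15 genes passed the test in each line by itself and moved in opposite directions, and they are described first.

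All KO cells received a lentiCRISPRv2 construct with a GFP marker and a single guide against MPC1, and all EV cells an empty vector; the sources used here do not say whether the KO cells were clones or a mixed population. The medium of every group held glutamine and sodium pyruvate. The remaining libraries are EV and KO of THP-1, a monocytic AML line, from the same count table, and a separate series of MV4-11 and Molm-14 with a miR-1 vector (OE) or an empty vector. The labels number the libraries of a group from 1 to 3 without saying whether they were separate cultures, so p-values measure only the spread between these libraries, which may be technical.

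MPC1 and its partner MPC2 form the carrier that brings pyruvate, the end product of glycolysis, across the inner mitochondrial membrane. There it is turned into acetyl-CoA and oxaloacetate for the tricarboxylic acid (TCA) cycle, and a cell without the carrier can feed the cycle from glutamine, fatty acids or other amino acids. In AML lines of monocytic character, surface receptors, granule proteins and transcription factors such as IRF8 also mark how far cells have gone along the myeloid path.

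MPC1 (ENSG00000060762; chr6:166364919-166383013, minus strand, GRCh38) was measured at 56.4, 58.3 and 53.7 counts-per-million (CPM) in MV4-11 EV libraries 1 to 3 and at 26.03, 24.8 and 23.5 CPM in MV4-11 KO, and at 80.05, 79 and 72.9 CPM in Molm-14 EV and 33.2, 40.98 and 38.1 CPM in Molm-14 KO. No KO library overlapped an EV library, and the fall was close in size in both lines (log2 fold change -1.18, SE 0.10, in MV4-11 and -1.04, SE 0.09, in Molm-14). The difference of -0.14 (SE 0.13) did not pass the test (adjusted p = 0.702). Total counts ran from 6200015 to 9106478 per library. The 8 myeloid markers were detected in all 12 libraries, while T cell, erythroid and fibroblast markers were at or near 0 in each (CD3G, CD2, HBA2 and COL3A1 at 0 in all 12). MV4-11 EV 2 and 3 and Molm-14 EV 2 stood apart on the second principal component, which held 2.83% of the variance, with 0.452%, 0.392% and 0.306% of counts from the mitochondrial genome. The other 9 libraries of these lines had 0.140% to 0.214%. THP-1 EV 3, at 0.351%, stayed in all fits as part of the estimate of the spread. Without these 3 libraries, which leaves 1 library in MV4-11 EV, 53 genes passed, 50 of them among the 215, and all 215 kept the sign of their difference. With the mitochondrial share as a covariate instead, 796 genes passed, 187 of them among the 215. Any further part of that share in the results was not tested.

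The KO effect in MV4-11 passed the test in 784 genes (5.41%) and in Molm-14 in 348 genes (2.4%). Of the 215 genes whose effect differed, 105 passed in MV4-11 alone, 67 in Molm-14 alone, 19 in neither line, 9 in both lines in the same direction (all 9 up) and 15 in both lines in opposite directions. The estimates had opposite signs in 168 of the 215 genes, with 67 up in MV4-11 and down in Molm-14 and 101 the other way, but for most of them only the effect in 1 line passed the test. The median size of the difference was 0.78 on the log2 scale, and the median difference over all 14490 genes was 0.02. The count depended on single libraries: it was 369 without MV4-11 EV 1, 105 without MV4-11 EV 3, 115 without MV4-11 KO 1, 116 without Molm-14 EV 3 and 117 without Molm-14 KO 2. The 784 calls in MV4-11 were 1400 without MV4-11 EV 1, 287 without EV 2, 133 without EV 3, 158 without KO 1 and 331 without KO 2, and the 348 in Molm-14 were 218 without Molm-14 EV 2, 231 without KO 1 and 183 without KO 2.

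**Figure D1:**
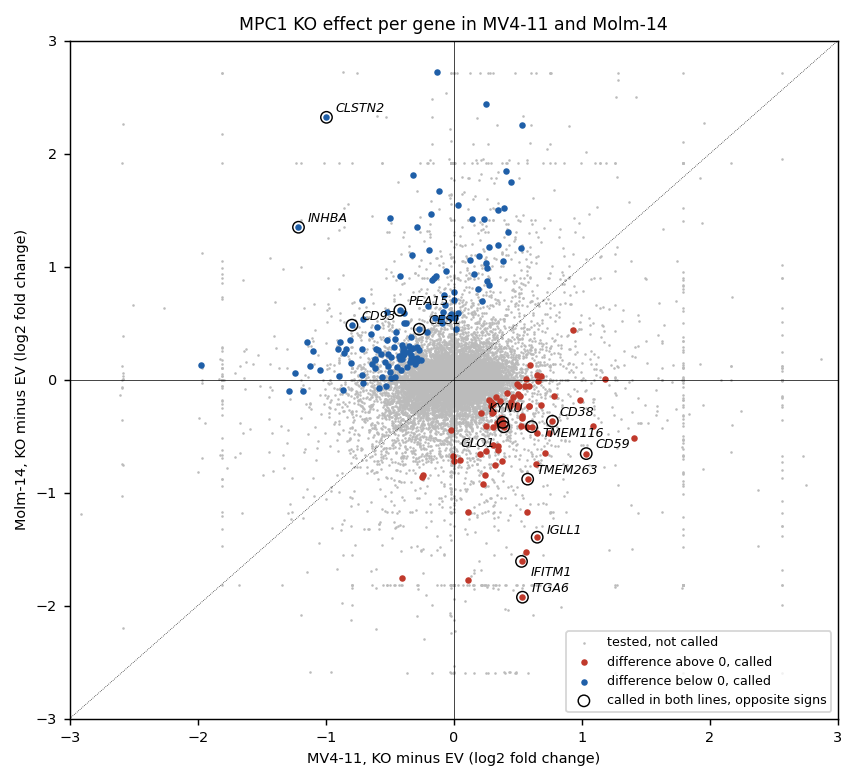
Effect of MPC1 KO on each tested gene in MV4-11 (x axis) and Molm-14 (y axis), both as log2 fold change of KO over EV. Red and blue points are the 78 and 137 genes whose effects differed, circles mark genes called in opposite directions in both lines, the dotted line marks equal effects, and 117 genes beyond 3 on either axis, KALRN among them, are not drawn; rows and columns of grey points are genes with very few counts. Of the 215 coloured genes, 168 lie on opposite sides of 0 in the 2 lines.

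The genes that moved in opposite directions were 10 that rose in MV4-11 KO, where 3.17% of tested genes rose, and fell in Molm-14 KO, where 1.06% fell (ITGA6, CD38, CD59, GLO1, KYNU, IFITM1, IGLL1, KALRN, TMEM263 and TMEM116) and 5 that fell in MV4-11 KO, as 2.24% did, and rose in Molm-14 KO, as 1.34% did (INHBA, CD93, CLSTN2, PEA15 and CES1). They make up 0.104% of the genes tested. In all 15 the KO and EV libraries did not overlap in either line, which held with opposite directions for 1.75% of all tested genes (24.1% did not overlap in MV4-11, 16.4% in Molm-14 and 4.65% in both). A gene that passes with opposite signs in each line has to differ between them, so the differences below give sizes more than evidence of their own. All 15 passed the test of the difference in all 12 leave-one-out fits, each without 1 library. Passing in both lines at once was less stable: 7 genes did so without MV4-11 EV 2, MV4-11 EV 3, Molm-14 KO 1 or Molm-14 KO 3, 8 without Molm-14 KO 2 and 9 without Molm-14 EV 3. CD93, TMEM263 and CLSTN2 passed in both lines in all 12 of these fits, GLO1 in 3 and CES1 in 1. With the mitochondrial share as a covariate all 15 still differed between the lines, but 8 of them passed in both lines with opposite signs; ITGA6, GLO1, KYNU, IGLL1, IFITM1, TMEM263 and PEA15 lost their effect in MV4-11 (adjusted p of 0.0682 to 0.696 in edgeR). No gene was past the test in both lines with opposite signs without the 3 EV libraries with the high mitochondrial share, but 12 of the 15 still differed between the lines there, the exceptions being KYNU (adjusted p = 0.13), IFITM1 (0.138) and KALRN (0.0982).

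Several of the 15 encode surface proteins. ITGA6 (chr2:172427354-172506459, plus strand), the integrin alpha 6 chain that forms laminin receptors, was at 11.3, 8.75 and 7.55 CPM in MV4-11 EV and 15.9, 12.03 and 12.7 CPM in MV4-11 KO, and at 178, 169.7 and 192 CPM in Molm-14 EV and 48.2, 44.7 and 49.1 CPM in Molm-14 KO. It fell to 26.3% of its EV level in Molm-14, the line with the higher level, while the rise in MV4-11 was small beside it. The log2 fold changes were 0.54 (SE 0.15, adjusted p = 0.0356 in edgeR) and -1.93 (SE 0.11, adjusted p = 5.76e-12), with a difference of 2.46 (SE 0.18, adjusted p = 4.57e-09). The rise in MV4-11 was 0.29 (adjusted p = 0.358) with the covariate and 0.26 (0.708) without the 3 EV libraries, and missed by voom (0.0624). As fewer cells that carry a transcript and less of it per cell give the same value in bulk RNA, the data do not tell these apart, here or below.

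CD38 (chr4:15778275-15853232, plus strand), an ectoenzyme that breaks down NAD, rose from 10.8, 12.9 and 11.4 CPM in MV4-11 EV to 22.5, 16.4 and 21.1 CPM in MV4-11 KO, and fell from 67.9, 82.8 and 77.5 CPM in Molm-14 EV to 59.1, 57.1 and 61.2 CPM in Molm-14 KO. CD59 (chr11:33703010-33736479, minus strand), which shields cells from the complement attack complex, was at 8.12, 7.41 and 6.32 CPM in MV4-11 EV, 18.4, 14.2 and 12.8 CPM in MV4-11 KO, 19.3, 14.5 and 18.6 CPM in Molm-14 EV and 11.97, 10.5 and 10.6 CPM in Molm-14 KO. Each was lower in MV4-11 EV than in Molm-14 EV. In KO cells CD38 was still lower in MV4-11, while all 3 MV4-11 KO libraries lay above Molm-14 KO for CD59. The difference was 1.14 (SE 0.15) for CD38 and 1.69 (SE 0.22) for CD59, with the same adjusted p of 8.61e-05 in edgeR. The fall of CD38 in Molm-14 by itself was less secure (-0.37, adjusted p = 0.0304 in edgeR). It passed in DESeq2 (0.0183) and voom (0.0242). In edgeR it missed with the 12 libraries alone (0.0898) and with the replicate number as a block (0.0611). CD38 passed in both lines in 7 of the 12 leave-one-out fits, and CD59 in 8.

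CD93 (chr20:23079360-23086324, minus strand), a lectin-like receptor of myeloid and endothelial cells, moved the other way and moved the lines apart. It was at 13, 14.3 and 13.6 CPM in MV4-11 EV and 6.97, 7.77 and 8.67 CPM in MV4-11 KO, and at 94.2, 88.3 and 90.99 CPM in Molm-14 EV and 134, 129 and 119 CPM in Molm-14 KO. The log2 fold changes were -0.80 (SE 0.12, adjusted p = 0.000289 in edgeR) and 0.48 (SE 0.08, adjusted p = 0.0003), and the difference of -1.28 (SE 0.14) had an adjusted p of 4.35e-06. CLSTN2 (chr3:139935185-140577397, plus strand), a calsyntenin of the cadherin family, fell to 50.1% of its EV level in MV4-11, from 49.7, 66.1 and 57.05 CPM in EV to 27.02, 27.9 and 31.6 CPM in KO. In Molm-14 it was barely counted, with 3, 9 and 5 reads in EV and 28, 23 and 27 reads in KO. Its difference of -3.32 (SE 0.42, adjusted p = 8.61e-05 in edgeR) therefore joins a fall of an expressed gene to a rise at a trace level.

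INHBA (chr7:41667168-41705834, minus strand), the subunit from which activin A is built, showed the same shape. It was at 42.02, 48.1 and 49.5 CPM in MV4-11 EV and 18.1, 17.5 and 24.4 CPM in MV4-11 KO, and at 0.673, 1.12 and 2.37 CPM in Molm-14 EV and 3.94, 3.33 and 3.75 CPM in Molm-14 KO. The fall in MV4-11 (-1.21, SE 0.16) was of an expressed gene, while the rise in Molm-14 (1.35, SE 0.33) rested on 32 reads over the EV libraries and 74 over the KO libraries. PEA15 (chr1:160205380-160215376, plus strand), a small phosphoprotein that binds ERK, was expressed in both lines, with 44.7, 52.8 and 51.8 CPM in MV4-11 EV, 35.4, 39.6 and 36.2 CPM in MV4-11 KO, 33.6, 35.3 and 29.01 CPM in Molm-14 EV and 48.04, 46.4 and 55.8 CPM in Molm-14 KO. The line with the higher EV level had the lower KO level, without overlap in either, and the difference was -1.04 (SE 0.15, adjusted p = 0.000155 in edgeR).

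Enzymes made up a further group. GLO1 (chr6:38675925-38703145, minus strand), which clears the methylglyoxal that glycolysis gives off, was the most abundant of the 15, at 192, 167 and 167 CPM in MV4-11 EV and 254, 222 and 214 CPM in MV4-11 KO, against 1187, 969 and 1140 CPM in Molm-14 EV and 799.7, 832 and 837 CPM in Molm-14 KO. KYNU (chr2:142877657-143055833, plus strand), kynureninase of the tryptophan pathway, was at 79.6, 72.4 and 65.5 CPM in MV4-11 EV, 101, 93.7 and 90 CPM in MV4-11 KO, 66.1, 69.7 and 72.1 CPM in Molm-14 EV and 55.1, 57.9 and 46.9 CPM in Molm-14 KO. CES1 (chr16:55802851-55833337, minus strand), a carboxylesterase of monocytes and liver that acts on lipid esters, ran against them, at 120.1, 104 and 112 CPM in MV4-11 EV, 90.04, 96.2 and 93.02 CPM in MV4-11 KO, 77.7, 70.2 and 75.4 CPM in Molm-14 EV and 98.6, 104 and 101 CPM in Molm-14 KO. Their changes were modest, between -0.27 and 0.45 for CES1 and close to 0.4 up in MV4-11 and 0.4 down in Molm-14 for the others. With the mitochondrial covariate the values in MV4-11 were 0.08 (adjusted p = 0.696 in edgeR) for GLO1 and 0.22 (0.257) for KYNU. The differences were 0.81 (SE 0.14) for GLO1 and 0.76 (SE 0.13) for KYNU, with adjusted p = 0.00222 for both in edgeR, and -0.72 (SE 0.11, adjusted p = 0.000694) for CES1.

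IFITM1 (chr11:310041-315272, plus strand), an interferon-induced membrane protein that blocks virus entry, was at 34.9, 32.9 and 33 CPM in MV4-11 EV and 44.1, 56.9 and 44.5 CPM in MV4-11 KO. In Molm-14 it was near the limit of detection, with 9, 18 and 11 reads in EV and 3, 5 and 3 in KO, so the difference of 2.14 (SE 0.42, adjusted p = 0.0062 in edgeR) again pairs an expressed gene with a trace. IGLL1 (chr22:23573125-23580302, minus strand), part of the surrogate light chain of early B cells, was at 21.6, 13.7 and 17.7 CPM in MV4-11 EV, 24.9, 30.9 and 27.8 CPM in MV4-11 KO, 5.04, 3.83 and 3.82 CPM in Molm-14 EV and 1.42, 2.13 and 1.09 CPM in Molm-14 KO. Its fall in Molm-14 rested on 93 reads over the EV libraries and 32 over the KO libraries. KALRN (chr3:124033369-124726325, plus strand), a guanine nucleotide exchange factor for small GTPases, fell in Molm-14 from 20.5, 19.2 and 18.99 CPM to 9.29, 8.52 and 8.91 CPM (log2 fold change -1.14, SE 0.18, adjusted p = 0.000287). In MV4-11 it had no read in any EV library and 2, 8 and 3 reads in KO, which is at least 4.25-fold higher against a floor of 3 reads over the EV group. Its rise in MV4-11 is thus from 0 reads to a trace.

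TMEM263 and TMEM116 are membrane proteins with little described function. TMEM263 (chr12:106955719-106978778, plus strand) was at 13.7, 12.4 and 12.9 CPM in MV4-11 EV, 20.9, 17.9 and 19.6 CPM in MV4-11 KO, 54.8, 55.03 and 61.1 CPM in Molm-14 EV and 31.2, 31 and 30.6 CPM in Molm-14 KO. It was among the steadiest of the 15, with a difference of 1.46 (SE 0.15, adjusted p = 2.51e-06 in edgeR). TMEM116 (chr12:111931282-112013185, minus strand) was at 34.1, 30.02 and 28.7 CPM in MV4-11 EV, 48.4, 49.5 and 44.1 CPM in MV4-11 KO, 74.3, 66.7 and 72.9 CPM in Molm-14 EV and 53.4, 48.96 and 57.97 CPM in Molm-14 KO, and its difference was 1.02 (SE 0.14, adjusted p = 8.61e-05). ITGA6, INHBA, IFITM1, IGLL1, TMEM263, KALRN, KYNU and PEA15 overlap an exon on the opposite strand in GENCODE 44, and since strand use in the counting is not stated, reads of the partner cannot be told apart from theirs. IFITM1, IGLL1 and CES1 also have close relatives in the genome that could share reads.

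**Figure D2:**
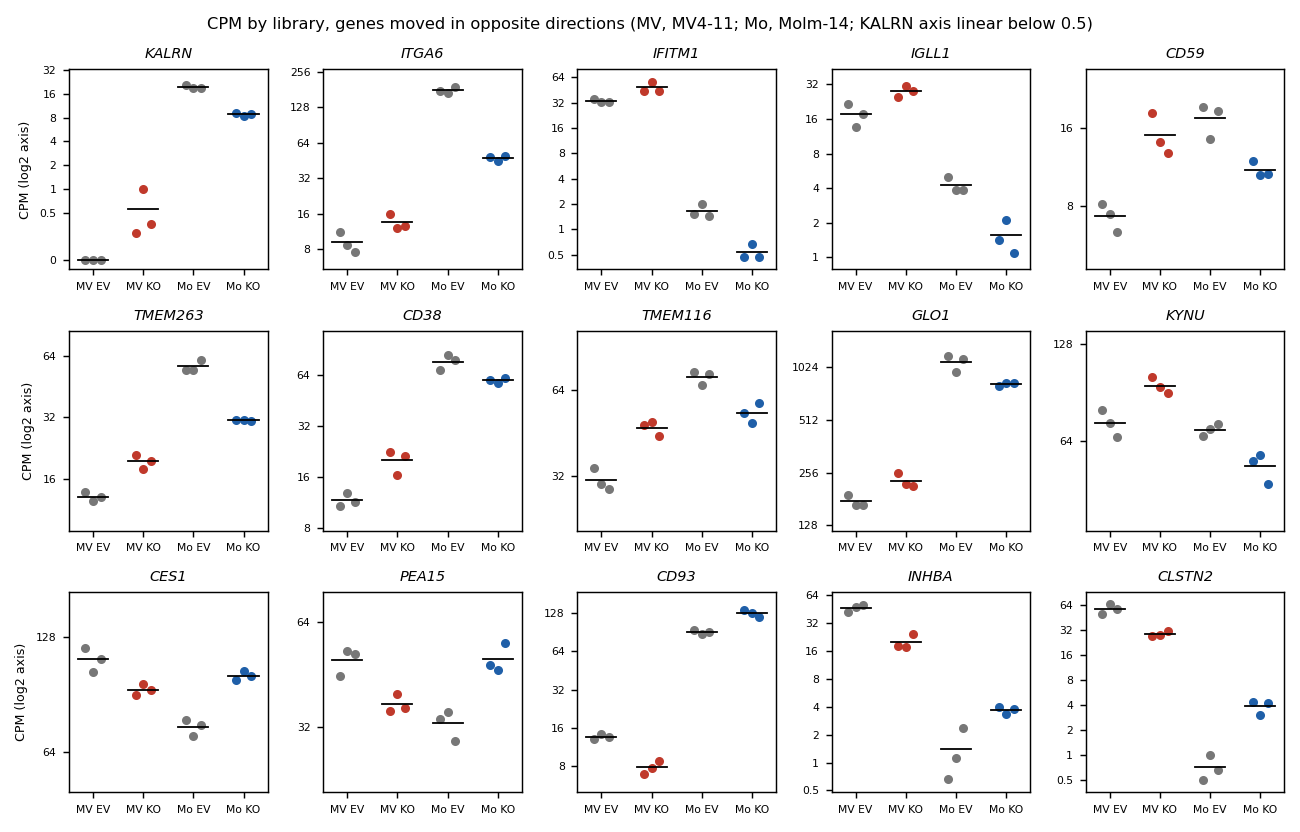
CPM of the 15 opposite-direction genes in each of the 12 libraries, on a log2 axis of its own for each gene (for KALRN linear below 0.5 CPM to show 0). Grey points are EV, red MV4-11 KO, blue Molm-14 KO, and bars are group means. KO and EV points do not overlap in either line. CLSTN2, INHBA, IFITM1 and IGLL1 reach their low levels in Molm-14, and KALRN in MV4-11.

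Nearly all of the 15 genes also differed in level between the lines without a knockout, KYNU being the exception in the knockout series (adjusted p = 0.56 in edgeR). Such line differences were common, as at least 7341 of all 14490 genes tested were called between the EV cells of the knockout series. In the EV cells of the miR-1 series, which do not enter the comparison, all 15 were called between MV4-11 and Molm-14, against 64.8% of all genes tested there. The sign of this line difference was the same as in the EV cells of the knockout series for 13 of the 15, which can be read only as a description, since the latter EV libraries are also part of the KO effect. CD38 was an exception: it was -2.70 on the log2 scale in MV4-11 relative to Molm-14 in the knockout series and 0.65 in the miR-1 series. CES1 also changed sign, from 0.59 to -0.75. Over the 7341 genes called in both series, 97.8% had the same sign, and over the 168 of them whose KO effect differed it was 94.1%.

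**Figure D3:**
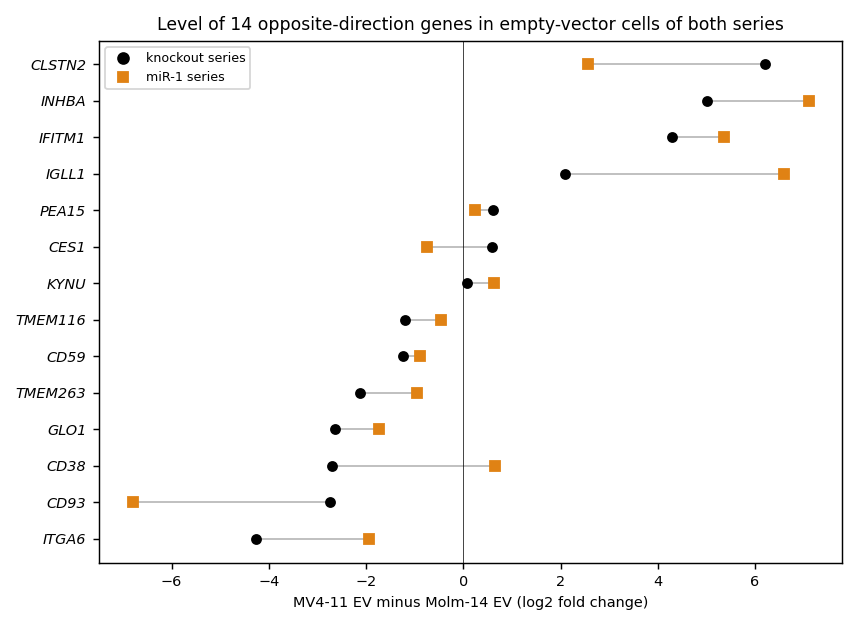
MV4-11 EV minus Molm-14 EV, as log2 fold change, for 14 of the 15 opposite-direction genes in the knockout series (black circles) and the miR-1 series (orange squares). KALRN is left out because it had no reads in MV4-11 EV of the knockout series. CD38 and CES1 lie on opposite sides of 0 in the 2 series, and the other 12 on the same side.

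Among genes with at least 100 counts on average and separated groups, further large positive differences were found in genes that fell in Molm-14. FOXP2, a forkhead transcription factor, was at 51.8, 69.5 and 61.3 CPM in Molm-14 EV and 29.1, 25.6 and 27.03 CPM in Molm-14 KO, while MV4-11 EV (96.1, 109.5 and 98.99 CPM) and KO (108, 99.9 and 121 CPM) overlapped. Its log2 fold change was -1.17 (SE 0.11, adjusted p = 3.41e-08 in edgeR) in Molm-14 and 0.11 (SE 0.09, adjusted p = 0.511) in MV4-11, a difference of 1.28 (SE 0.14, adjusted p = 4.35e-06). PLAG1, a zinc finger transcription factor, fell by 0.63 on the log2 scale in Molm-14 and had an estimate of 0.35 (adjusted p = 0.135) in MV4-11. TRIQK fell by 0.84 in Molm-14, with 0.24 (adjusted p = 0.256) in MV4-11. ADGRL2, an adhesion receptor of the latrophilin family, fell by 0.47 in Molm-14 from 277, 296 and 296 CPM to 212, 199.6 and 215 CPM and stood at only 1.51, 1.48 and 1.85 CPM in MV4-11 EV, and ARHGAP5, a GTPase-activating protein, fell by 0.65 in Molm-14. The estimates in MV4-11 were larger than these falls but did not pass, at 0.65 (adjusted p = 0.168 in edgeR) for ADGRL2 and 0.71 (adjusted p = 0.141) for ARHGAP5.

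Rises in MV4-11 made up the remaining large positive differences. SULT1A1, a sulfotransferase for phenols with near-identical relatives that may share reads, rose by 0.57 in MV4-11 and had an estimate of -0.42 (adjusted p = 0.152 in edgeR) in Molm-14. KRT18, an epithelial keratin whose gene overlaps that of KRT8, rose by 0.98 from a low level (2.44, 1.75 and 2.00 CPM in EV and 4.12, 4.64 and 3.65 CPM in KO). The epithelial markers EPCAM and KRT19 were at or near 0, and the 4 epithelial markers summed to 3.23 to 3.95 CPM in MV4-11 EV, 5.26 to 7.02 CPM in MV4-11 KO, 29.3 to 35.5 CPM in Molm-14 EV and 27.5 to 29.8 CPM in Molm-14 KO. The difference of KRT18 passed in 2 of the 12 leave-one-out fits, that of ADGRL2 in 7 and that of ARHGAP5 in 8 (adjusted p up to 0.161, without MV4-11 KO 3). FOXP2, PLAG1, TRIQK and SULT1A1 passed in all 12.

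Large negative differences were mostly rises in Molm-14 KO that MV4-11 KO lacked or showed in part. TNF, the inflammatory cytokine, was at 16.5, 14.7 and 15.6 CPM in Molm-14 EV and 43.6, 42.2 and 32.97 CPM in Molm-14 KO, and at 16.5, 15.8 and 18.2 CPM in MV4-11 EV and 13.9, 14.9 and 12.3 CPM in MV4-11 KO. The EV libraries of the lines overlapped, and the log2 fold change was 1.35 (SE 0.13, adjusted p = 5.83e-08 in edgeR) in Molm-14 and -0.29 (SE 0.14, adjusted p = 0.204) in MV4-11. The difference was -1.64 (SE 0.19, adjusted p = 4.97e-06). S100A9, the calprotectin subunit of neutrophils and monocytes, rose in Molm-14 from 11.1, 7.88 and 12.4 CPM to 23.8, 21.6 and 23.6 CPM, and overlapped between EV (33.3, 21 and 24.98 CPM) and KO (27.02, 23.3 and 19.5 CPM) in MV4-11, with a difference of -1.34 (SE 0.24, adjusted p = 0.00318).

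MPEG1, a pore-forming protein of macrophages, rose in Molm-14 by 1.42 (SE 0.17) from 5.21, 6.53 and 3.82 CPM to 11.3, 15.3 and 15.5 CPM. DTX4, a ubiquitin ligase of the Notch pathway, rose there by 1.75 (SE 0.13), from 10.6, 13.6 and 11.1 CPM to 41.6, 41.4 and 36.7 CPM, and also rose in MV4-11 (0.45, SE 0.11), so the lines differed in size and not in direction. The ends of MPEG1 and DTX4 overlap on opposite strands, so their rises may share reads. ZNF302, a zinc finger protein, rose in both lines as well, by 1.84 in Molm-14 from a low level (1.51, 1.58 and 2.11 CPM) and by 0.41 in MV4-11. SLC12A7, a potassium and chloride cotransporter, and SERPINB6, a protease inhibitor, rose from 3.36, 2.48 and 1.71 CPM and 1.34, 1.24 and 2.24 CPM in Molm-14 EV to 9.45, 5.99 and 5.16 CPM and 5.04, 3.99 and 4.06 CPM in KO, and did not pass in MV4-11 (adjusted p = 0.551 and 0.418 in edgeR). SERPINB6 lost its difference without Molm-14 EV 2 (adjusted p = 0.0515).

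ADGRL3 gave a large negative difference by a fall in MV4-11. ADGRL3, a latrophilin like ADGRL2, was at 50.4, 50.6 and 53.4 CPM in MV4-11 EV and 21.8, 20.6 and 20.7 CPM in MV4-11 KO, while Molm-14 EV (61.9, 61.2 and 59.2 CPM) and KO (55.1, 52.7 and 62.7 CPM) overlapped. Its log2 fold change of -1.29 (SE 0.09, adjusted p = 3.3e-10 in edgeR) against -0.10 (SE 0.08, adjusted p = 0.76) gave a difference of -1.19 (SE 0.12, adjusted p = 9.16e-07).

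Pathway lists were described by their counts and medians. Of their members, 37 genes had a difference past the test (22 without MV4-11 EV 3, 24 without MV4-11 KO 1 and 23 without Molm-14 KO 2). Over all 14490 genes it was 215 (1.48%). As the lists were chosen with earlier results of these data known, 37 is a tally and does not measure an excess. In the pathways next to the deleted carrier, none of 20 glycolysis genes, none of 20 TCA cycle genes and none of 72 nuclear OXPHOS subunits passed. With 1.48% of all genes called, lists of this size would hold few calls or none, so these counts do not set them apart. Their median differences were -0.08, -0.06 and -0.03, against 0.02 over all genes. In edgeR 5 of the 20, 4 of the 20 and 8 of the 72 were under 0.05 at unadjusted p, against 2058 of all 14490 genes. DESeq2 called 1 in each list. With the mitochondrial share as a covariate, added after seeing the data, 2, 4 and 16 members of these lists passed. That fit called 796 of all 14490 genes, so the absence of calls depends on that choice. All 13 mitochondrially encoded OXPHOS subunits had a negative difference (median -0.63), with a median of -0.75 in MV4-11 and -0.12 in Molm-14. None passed the test of the difference in edgeR (5 at unadjusted p under 0.05, and 1 by DESeq2). As falls, 3 passed in MV4-11 (2.24% of all genes) and none in Molm-14 (1.06%). This list draws on the same reads as the mitochondrial share that set MV4-11 EV 2 and 3 and Molm-14 EV 2 apart, and without those libraries its median was -0.32.

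Single metabolic genes passed the test of the difference, several of them not in every leave-one-out fit. TXNIP, an arrestin that responds to glucose and curbs its uptake, was at 497, 469 and 438 CPM in MV4-11 EV and 318, 312 and 304 CPM in MV4-11 KO, and at 216, 191 and 213 CPM in Molm-14 EV and 197, 196 and 197 CPM in Molm-14 KO. CPT1A, the gate of fatty acid entry into mitochondria, was at 282, 307 and 305 CPM in MV4-11 EV and 205, 213 and 232 CPM in MV4-11 KO, and at 89.97, 103 and 90.99 CPM in Molm-14 EV and 100.3, 96.5 and 92.5 CPM in Molm-14 KO. Both fell in MV4-11 without overlap and overlapped between groups in Molm-14. The differences were -0.52 (SE 0.11, adjusted p = 0.0167 in edgeR) and -0.48 (SE 0.12, adjusted p = 0.0369); TXNIP narrowly missed without Molm-14 EV 2 (adjusted p = 0.0508) and also without Molm-14 KO 2, and CPT1A passed in 4 of the 12 leave-one-out fits.

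Of 25 tested genes of the ATF4 amino acid response PSAT1 alone had a difference past the test, and of 17 glutamine genes CTPS1 and SLC38A1 did. Over all genes 1.48% passed. The median differences of the 2 lists were -0.09 and 0.00. PSAT1, an enzyme of serine synthesis, fell in MV4-11 from 36.6, 47.9 and 49.2 CPM to 29.7, 25.3 and 32.3 CPM, and was at 139, 169 and 146 CPM in Molm-14 EV and 188, 179.9 and 181 CPM in Molm-14 KO. All 3 KO libraries were below EV in MV4-11 and above EV in Molm-14, although the effect in Molm-14 did not pass (adjusted p = 0.186, against 0.00187 in MV4-11, edgeR). CTPS1, which makes CTP with glutamine nitrogen, had the same shape (-0.35 in MV4-11, 0.24 in Molm-14, adjusted p of the difference 0.00483). SLC38A1, a glutamine importer, rose in MV4-11 by 0.59 (SE 0.08), with 0.13 in Molm-14 (adjusted p = 0.581); its difference passed in 5 of the 12 leave-one-out fits. PMVK of the cholesterol pathway fell by 0.65 in MV4-11 (difference -1.05, adjusted p = 0.0127, and 0.0584 without MV4-11 EV 3). ME1, a malic enzyme that makes pyruvate in the cytosol, was at 12.1, 17.1 and 16.4 CPM in Molm-14 EV and 13.7, 13.7 and 14.5 CPM in Molm-14 KO; in MV4-11 it had 4, 6 and 2 reads in EV and none in KO, so its call rests on a trace, at least 4.08-fold lower in KO against a floor of 3 reads over the group.

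Several myeloid genes rose further in Molm-14. LYZ, lysozyme, was at 332, 285 and 347 CPM in Molm-14 EV and 626, 628 and 624 CPM in Molm-14 KO, and at 7529, 5966 and 6223 CPM in MV4-11 EV and 6803, 6288 and 5847 CPM in MV4-11 KO. IRF8, a transcription factor of monocytes and dendritic cells, was at 499, 441 and 518 CPM in Molm-14 EV and 851, 894 and 860.2 CPM in Molm-14 KO, and at 887, 745 and 752 CPM in MV4-11 EV and 965, 993 and 927 CPM in MV4-11 KO. LYZ rose in Molm-14 and overlapped between EV and KO in MV4-11 (difference -1.02, SE 0.14, adjusted p = 0.00016 in edgeR), and IRF8 rose in both lines, further in Molm-14 (difference -0.56, SE 0.12, adjusted p = 0.00942). Of 23 tested monocyte maturation markers, 16 had a negative difference (median -0.41), against 6738 of all 14490 genes (median 0.02). LYZ and S100A9 passed, where 1.48% of all genes did. The median effect was 0.49 in Molm-14 and 0.25 in MV4-11, so the list stood above 0 in both lines. The 10 HLA class II genes tested, which present antigen, had medians of 0.53 in MV4-11 and 0.54 in Molm-14. Called up were 2 in MV4-11 (3.17% of all genes) and 3 in Molm-14 (1.34%). None differed between the lines by edgeR or DESeq2, and 0 were under 0.05 at unadjusted p, against 2058 of all 14490 genes. With 1.48% of all genes called in edgeR, 0 calls among 10 does not show that the lines agree.

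The chemokine receptors CCR1, CCR2 and CXCR2 had negative differences, 3 calls among 14 tested receptors of chemotaxis (1.48% of all genes tested were called). CCR2 was at 56.8, 49.5 and 63.3 CPM in Molm-14 EV and 124, 132 and 127 CPM in Molm-14 KO, and at 411, 360.4 and 358 CPM in MV4-11 EV and 468, 461 and 440.5 CPM in MV4-11 KO. CCR1 rose in both lines, by 1.17 in Molm-14 and 0.53 in MV4-11, and CXCR2 rose by 0.90 in Molm-14 from a low level, with -0.16 (adjusted p = 0.497) in MV4-11. The differences were -0.90 (SE 0.14, adjusted p = 0.000418 in edgeR), -0.64 (SE 0.13, adjusted p = 0.00978) and -1.05 (SE 0.24, adjusted p = 0.0172, lost without MV4-11 EV 3, Molm-14 EV 2 or Molm-14 KO 2, at most 0.0822).

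CTSG, MS4A3 and TCF4 had positive differences. CTSG, a neutrophil protease of primary granules, fell in Molm-14 from 488, 396 and 435 CPM to 255, 244 and 226 CPM, and overlapped between 318, 251 and 278 CPM in EV and 230.1, 265 and 217 CPM in KO of MV4-11. MS4A3, a membrane protein of granulocyte precursors, fell in Molm-14 by 0.66 (SE 0.11) and had an estimate of 0.21 (adjusted p = 0.218) in MV4-11. The list of 13 primary granule genes lay below 0 in both lines, with 5 called down in MV4-11 (2.24% of all genes), 4 called down (1.06%) and LYZ called up (1.34%) in Molm-14, and medians of -0.40 and -0.41. Its differences were positive in 6 genes and negative in 7. CTSG and MS4A3 were called above 0 (0.538% of all genes) and LYZ below (0.945%). The difference of CTSG passed in 7 of the 12 leave-one-out fits. TCF4, a transcription factor of plasmacytoid dendritic and lymphoid cells, rose in MV4-11 from 192, 206 and 191 CPM to 354, 335 and 327 CPM and was at 14.6, 19.1 and 13.7 CPM in Molm-14 EV and 16.2, 13.3 and 13.9 CPM in Molm-14 KO, with a difference of 0.93 (SE 0.15, adjusted p = 0.000773 in edgeR).

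FOS, an immediate early gene of the AP-1 family, rose in Molm-14 from 6.56, 7.32 and 7.78 CPM to 14.2, 13.3 and 13.6 CPM and overlapped between EV and KO in MV4-11 (difference -1.05, SE 0.19, adjusted p = 0.00208 in edgeR). HLA-B rose in Molm-14 by 0.70, with 0.22 (adjusted p = 0.109) in MV4-11, and ITGAL, the integrin chain of LFA-1, by 0.55, with -0.03 in MV4-11; both differences passed in 4 of the 12 leave-one-out fits, and HLA-B reads may be shared with other class I genes. JAG2, a Notch ligand, had 2, 1 and 0 reads in Molm-14 EV and 8, 14 and 7 in Molm-14 KO, too few for a fold change to be read from it. BAX and BIK, which promote apoptosis, went opposite ways: BAX fell in MV4-11 by 0.39 and BIK rose by 0.49, and neither passed in Molm-14; their differences passed in 3 and 4 of those 12 fits. RPL8 (difference -0.61), RPS21 (-0.54), MRPL4 (-0.64), MRPL12 (-1.48) and MCM6 (-0.50) passed as falls in MV4-11, though EV and KO of MCM6 overlapped there. Their estimates in Molm-14, at 0.21, 0.26, 0.24, 0.34 and 0.16, did not pass but add to the differences. RPS2 (-0.44) passed in neither line by itself. These 6 genes are 3 of 79 cytosolic ribosomal (3.8%), 2 of 75 mitochondrial ribosomal (2.67%) and 1 of 48 replication genes (2.08%). These shares are not far from the 1.48% of all genes, and the medians of the lists lay between 0.02 and 0.05. With the covariate 15 cytosolic and 9 mitochondrial ribosomal genes passed and no replication gene did, where 796 of all 14490 genes passed. RPS2, RPL8 and RPS21 have processed copies in the genome that may share reads, and RPL8 was the one of these 6 that passed in all 12 leave-one-out fits.

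**Figure D4:**
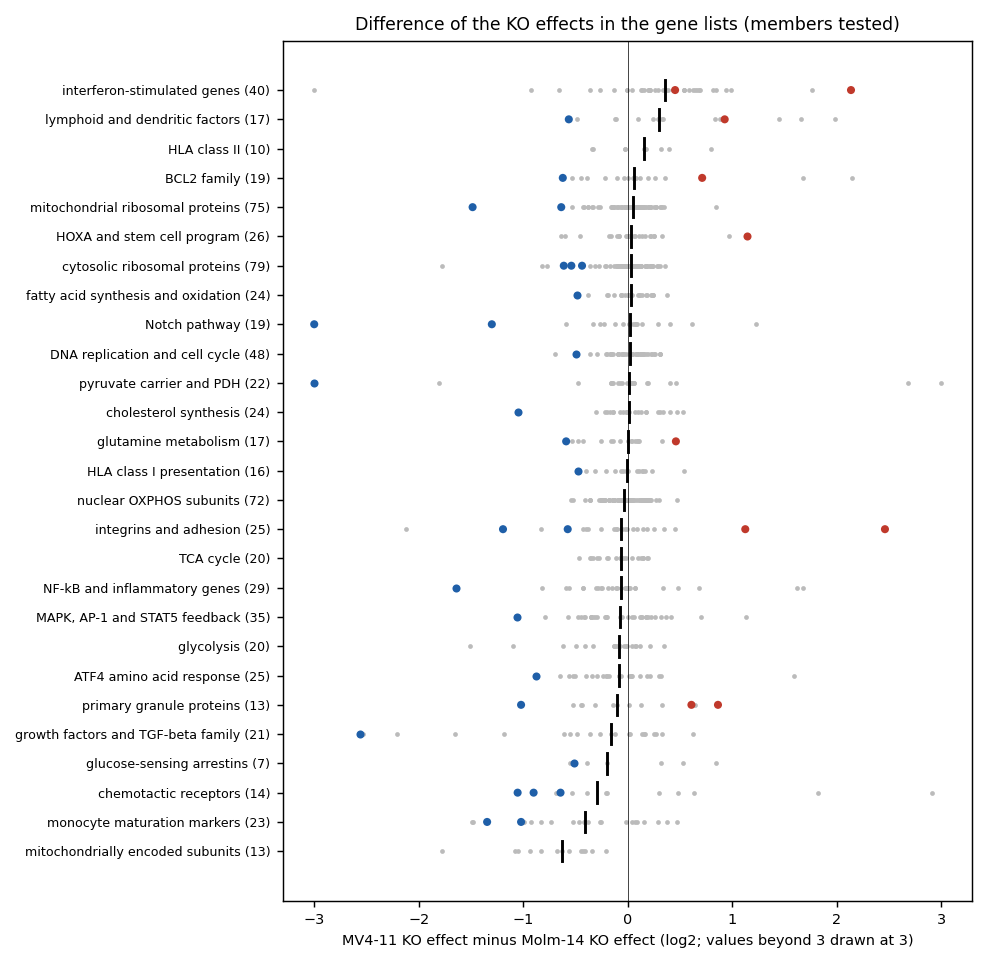
Difference of the KO effects (log2, MV4-11 minus Molm-14) for the tested members of 27 gene lists, with the number tested in brackets. Grey points did not pass, red and blue points passed above and below 0, and black bars are medians. The mitochondrially encoded subunits lie below 0 as a whole without a called member, and the interferon-stimulated genes lie mostly above 0.

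Interferon-stimulated genes leaned the other way from the monocyte markers: 32 of 40 tested had a positive difference, against 7663 of all 14490 genes, with a median of 0.36 against 0.02, a median of 0.17 in MV4-11 and -0.19 in Molm-14. Of these 6 were called up in MV4-11 (3.17% of all genes), 3 were called down in Molm-14 (1.06%), and 2 had a difference past the test (1.48%), IFITM1 (above) and PARP14, an ADP-ribosyltransferase. PARP14 was at 95.8, 94.4 and 88.97 CPM in MV4-11 EV and 114, 107 and 116 CPM in MV4-11 KO, and at 256, 268 and 271 CPM in Molm-14 EV and 226, 227 and 248 CPM in Molm-14 KO, without overlap in either line (difference 0.45, SE 0.10, adjusted p = 0.0167 in edgeR, passed in 7 of the 12 leave-one-out fits). Promoter windows from RefSeq (GRCh38.p14), 250 bases before to 50 bases after each gene start, were searched on both strands for TTTC, any 2 bases, then TTTC, the core of the element bound by interferon-activated STAT and IRF factors. Both called genes hold it, and the matches are shown 5′ to 3′ on the gene's strand, with the match in capitals, which reads as the reverse complement; they overlap no other motif searched.
IFITM1, chr11:313991-314018, plus strand: aaacagcagGAAATAGAAActtaagaga
IFITM1, chr11:314025-314052, plus strand: cacttctgaGAAACTGAAAcgacagggg
PARP14, chr3:122680801-122680828, plus strand: ccaggaaacGAAAGCGAAAgagtcaaag
The match was present in 2.97% of the 10683 promoters of tested genes and 3.65% of all 27305 windows. Among the genes with a difference it was present in 4 of 58 windows on the higher side (6.9%) and 4 of 109 on the lower side (3.67%), where 58 of 78 and 109 of 137 genes had a window. It was not counted over the other interferon-stimulated genes. Of the 7 motifs searched, the RUNX motif (TGTGGT) was the most frequent, in 9 of the 58 windows (15.5%) and 20 of the 109 (18.3%). It was in 9.35% of the promoters of tested genes and 13.1% of all windows. Whether any of these shares differ was not tested. A match is a run of letters and does not show binding.

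THP-1 served as a line outside the comparison. Its KO passed in 13 genes (0.0897%), 8 up (0.0552%) and 5 down (0.0345%), of which 2 were among the 215: TXNIP, at a log2 fold change of -0.64 (adjusted p = 6.67e-05 in edgeR), and CPT1A, at -0.49 (adjusted p = 0.00947), both down as in MV4-11. None of the 15 opposite-direction genes passed in THP-1 in edgeR, where 0.0897% of all genes did, so 0 of 15 is near that share. At unadjusted p, 4 of the 10 and 1 of the 5 were under 0.05, against 1160 of all 14490 genes. Over the 10 that rose in MV4-11 and fell in Molm-14 the median THP-1 effect was 0.24, and over the other 5 it was -0.04. Of the 10, 8 had estimates above 0, against 7349 of all 14490 genes. Among these 8, IGLL1 averaged 0 CPM in THP-1 EV and 0.0495 CPM in THP-1 KO, so its estimate rests on a trace. KALRN and IFITM1 were also low, at means of 1.03 and 1.46 CPM in THP-1 EV. CD38 and ITGA6, at -0.30 and -0.18, were the 2 of the 10 below 0. Over all 78 genes with a positive difference the THP-1 median was 0.02 and over the 137 with a negative difference -0.04, against 0.00 over all tested genes. In the miR-1 series, OE passed in 31 genes in MV4-11 (0.177%) and in 1 gene in Molm-14 (0.0057%), none of them among the 15.

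**Figure D5:**
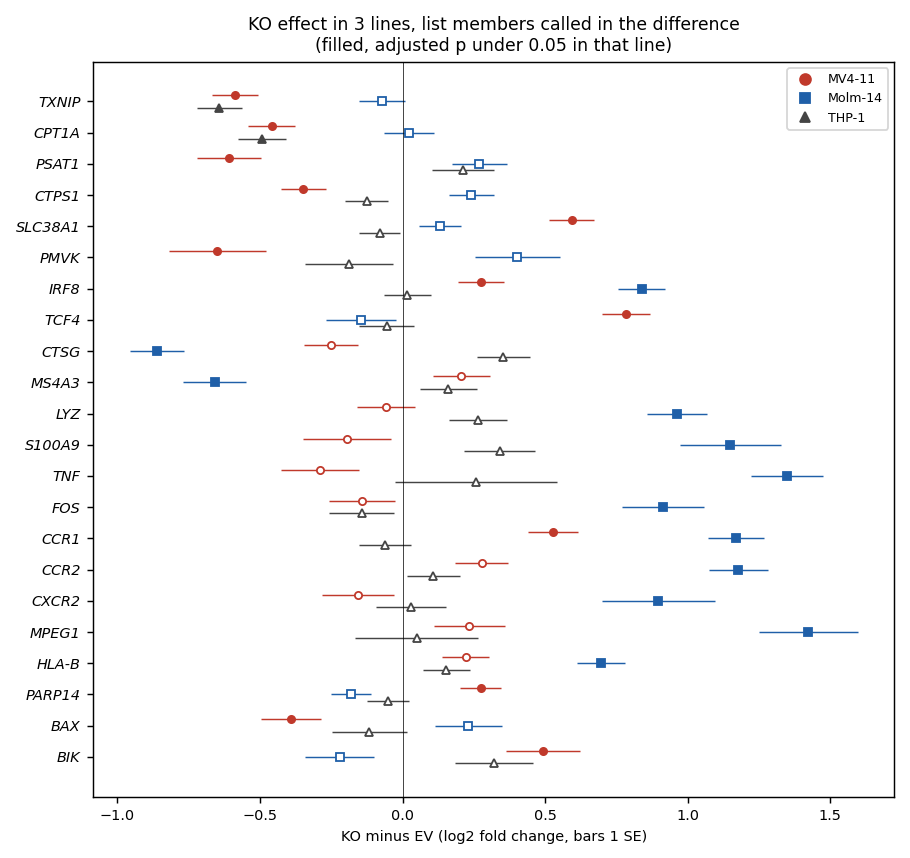
KO effect (log2 fold change of KO over EV, bars 1 SE) of 22 genes in MV4-11 (red circles), Molm-14 (blue squares) and THP-1 (grey triangles). Of them 21 are list members called in the difference, and MPEG1 was named by the size of its difference. Filled symbols have an adjusted p under 0.05 in that line. TXNIP and CPT1A are filled in MV4-11 and THP-1, and LYZ, S100A9, TNF, FOS, CTSG, MS4A3, CCR2, CXCR2, MPEG1 and HLA-B in Molm-14 alone.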

How the data were processed

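Raw counts per Ensembl gene were used from the table of the knockout series (18 libraries, 58051 genes) and, for EV levels and OE effects, from that of the miR-1 series (12 libraries). Per the submitters' processing notes, the authors trimmed reads (cutadapt 1.16), aligned them to GRCh38 with STAR 2.7.6a and deposited unnormalized counts from featureCounts 1.6.3; libraries were stranded total RNA with ribosomal RNA depleted, and strand use in counting is not stated. Groups came from the labels. Those of the Molm-14 EV libraries in the knockout series read only Molm EV and were taken as Molm-14.

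Genes kept by filterByExpr (14490) were fitted with edgeR 4.0.16 (R 4.3.3), TMM scaling, robust quasi-likelihood, 1 mean per group over all 18 libraries, so that THP-1 adds to the estimate of the spread. Contrasts were KO minus EV in each line and the difference between MV4-11 and Molm-14, with Benjamini-Hochberg adjustment over all genes tested and a threshold of 5%. The 17542 genes of the miR-1 series were fitted alone, and no level was compared between the tables. CPM use TMM-scaled library sizes. A count of 0 allows up to 3 counts, 0.338 to 0.505 CPM per library, counting error only, since PCR copies are not independent molecules. Replicates of MV4-11 and Molm-14 differed by more than sampling noise (chi-square per degree of freedom 1.89 to 11.9).

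Named genes were MPC1, all genes called in opposite directions, the 12 largest positive and 12 largest negative differences past the threshold, if the gene averaged 100 counts or more and separated KO from EV in 1 line or both, and called members of 27 gene lists; 1 gene so chosen is not reported here. Members, lists and tests were chosen with earlier results of these data known. Positions and overlaps came from GENCODE 44 (14390 of the tested genes matched), promoters from RefSeq (GRCh38.p14), searched for 7 motifs. Alternatives were the 12 libraries alone, RLE size factors, no filter, DESeq2 1.42.0, limma 3.58.1 voom, a replicate block and leaving out each library, and, chosen after seeing the data, the mitochondrial share as a covariate and leaving out the 3 MV4-11 and Molm-14 libraries above 0.3% (THP-1 EV 3, also above, was kept). Figures used matplotlib 3.10.9.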

Additional observations from a re-analysis of the deposited data

Results flagged for a closer look

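The KO effect differed between MV4-11 and Molm-14, by the edgeR test of the difference itself, in 215 genes. The 58 chosen by the rule for named genes are listed with their values. The positive differences, on the log2 scale, were 2.46 for ITGA6, 2.14 for IFITM1, 2.05 for IGLL1, 1.69 for CD59, 1.46 for TMEM263, 1.37 for ARHGAP5, 1.28 for FOXP2, 1.16 for KRT18, 1.14 for CD38, 1.13 for ADGRL2, 1.08 for TRIQK, 1.02 for TMEM116, 0.99 for SULT1A1, 0.97 for PLAG1, 0.93 for TCF4, 0.86 for MS4A3, 0.81 for GLO1, 0.76 for KYNU, 0.71 for BIK, 0.61 for CTSG, 0.46 for SLC38A1 and 0.45 for PARP14.

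The negative differences were -3.32 for CLSTN2, -2.56 for INHBA, -1.64 for TNF, -1.64 for SLC12A7, -1.48 for MRPL12, -1.44 for ZNF302, -1.34 for S100A9, -1.30 for DTX4, -1.28 for SERPINB6, -1.28 for CD93, -1.19 for ADGRL3, -1.19 for MPEG1, -1.05 for FOS, -1.05 for CXCR2, -1.05 for PMVK, -1.04 for PEA15, -1.02 for LYZ, -0.90 for CCR2, -0.88 for PSAT1, -0.72 for CES1, -0.64 for CCR1, -0.64 for MRPL4, -0.62 for BAX, -0.61 for RPL8, -0.59 for CTPS1, -0.57 for ITGAL, -0.56 for IRF8, -0.54 for RPS21, -0.52 for TXNIP, -0.50 for MCM6, -0.48 for CPT1A, -0.48 for HLA-B and -0.44 for RPS2. KALRN (6.18), ME1 (-4.82) and JAG2 (-3.03) have fitted values that depend on the prior count, because a group had 3 reads or fewer in all. Groups of 3 libraries are too small for a test of single outlying libraries.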

How the results depend on the processing

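All 215 genes kept the sign of their difference in every alternative run, while the median over all genes, 0.02, was -0.01 with the 12 libraries alone. Of the single-gene values 995 stayed on their side of the threshold and 165 lost their call. The number of genes whose effect differed (215) was 339 without a filter, 388 with the replicate number as a block, 796 with the mitochondrial share as a covariate and 53 without the 3 MV4-11 and Molm-14 libraries above 0.3%; it was 201 to 272 with the 12 libraries alone, RLE factors, DESeq2 or voom. Leaving out 1 library gave 105 to 369 for it, 7 to 17 for the opposite-direction genes (15), 22 to 51 for called list members (37), 133 to 1400 for MV4-11 KO (784), 183 to 368 for Molm-14 KO (348), 10735 to 11097 for EV levels in the miR-1 series (11371) and -0.21 to -0.06 for the difference of MPC1. MV4-11 KO gave 1474 with the block, 497 with the covariate and 48 without the 3 libraries, and Molm-14 KO 524 with the covariate. THP-1 gave 30 without a filter and 72 with the covariate, list members 98 with the covariate and 14 without the 3 libraries, and opposite directions 0 without the 3 libraries. The causes were not tested, except that the last setting leaves a single MV4-11 EV library, which is assumed to vary like the other groups. The deviations of same-numbered KO and EV libraries had correlations of -0.25 to 0.08 in MV4-11, -0.12 to 0.13 in Molm-14 and 0.10 to 0.33 in THP-1. With 3 libraries per group this cannot settle whether the number pairs libraries, and the labels do not say. The block kept 208 of the 215 calls among its 388. No block could be fitted for EV levels, since the number is nested in the lines. Of the 58 genes chosen by rule, 36 passed in every fit that left out 1 library and 27 without the 3 libraries. A depth of 6200015 to 9106478 counts limits genes near 3 reads, such as KALRN, ME1 and JAG2.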

Other observations

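Of the 215 genes, 5 were also called in MV4-11 cells of the miR-1 series and none in Molm-14. Of all 17542 genes tested in that series, 31 (0.177%) were called in MV4-11 and 1 (0.0057%) in Molm-14. MPEG1 was at 128, 129.7 and 134 CPM in MV4-11 EV and 63.6, 69.0 and 52.5 CPM in MV4-11 OE of that series (log2 fold change -1.08, SE 0.08, adjusted p = 2.86e-07 in edgeR), without overlap. TCF4 was at 54.7, 69.1 and 41.9 CPM in EV and 12.96, 21.02 and 24.1 CPM in OE (-1.51, SE 0.23, adjusted p = 0.0465), and NRIP1, a nuclear receptor corepressor, at 375, 452 and 347 CPM in EV and 208, 238 and 264 CPM in OE (-0.73, SE 0.09, adjusted p = 0.00522). TCF4 and NRIP1 had risen in MV4-11 KO, by 0.78 and 0.51, so the OE moved them the other way in that line. THSD7A, at -1.05 in MV4-11 KO, was at 0.46 in OE (adjusted p = 0.0365), and SLC39A10, a zinc importer, at 0.50 in KO and -0.27 in OE (adjusted p = 0.0328). NRIP1, THSD7A and SLC39A10 were named after their values were seen, and whether the 5 overlaps exceed those of other genes was not tested.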
